A study of Homo sapiens with 6 samples.

Results

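The replication-dependent histone genes are the clustered genes that supply most of the histone protein packed around newly copied DNA. Here they were taken by name: a gene belonged to the group if its name began with HIST1H, HIST2H, HIST3H or HIST4H and did not end in PS and a number, the mark of a named pseudogene. The rule used no measured value and gave 76 genes of the 58735 listed in each library's table, and it left out 14 rows for their PS ending. The members comprised 6 H1, 17 H2A, 23 H2B, 15 H3 and 15 H4 genes. By cluster, 55 were HIST1 genes on chromosome 6, 16 HIST2 and 4 HIST3 genes on chromosome 1, and 1 the HIST4 gene on chromosome 12. The annotation called 70 of them protein-coding and 6 of them pseudogenes (HIST2H2BA, HIST2H2BB, HIST2H2BC, HIST2H2BD, HIST2H3DP1 and HIST3H2BA), and these 6 stayed in because their names fit the rule.

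The cells were SKOV3, an established human ovarian carcinoma line that grows attached to the dish. One group had received an siRNA against HJURP (siHJURP) and the other a negative control siRNA (NC), and total RNA was taken from both 24 h later, with 3 sequenced libraries per group. HJURP is the chaperone that loads CENPA, the histone H3 variant of centromeres, so the comparison sets the genes for bulk histones beside the loss of one histone chaperone. All 6 libraries share the line, the transfection and the time. The sources used here give neither the siRNA sequences nor the step by which messenger RNA was selected, and the design text does not settle whether the replicates were separate cultures, so p-values measure only the spread between these samples.

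Replication-dependent histone genes are transcribed mainly in S phase, when DNA is copied. Their messages are unusual among animal mRNAs: in place of a poly(A) tail they end just after a short hairpin, the stem-loop, which is bound by the protein SLBP, and the cut that makes this end is guided by the U7 small nuclear RNP. Some of the genes also give polyadenylated transcripts that run past the stem-loop, described mainly in differentiated cells. A library built from poly(A)-selected RNA therefore sees these genes only in part.

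The stem-loop was read from the annotated transcripts (GENCODE release 29) and is shown for at least 1 member with each of its forms. The pattern searched, on the transcript's own strand, was GG, 3 bases of any kind, TT, 1 of any kind, T, 1 of any kind, A, 3 of any kind and CC. It was present in the 3' UTR of 32 of the 36 members whose annotated 3' UTR had at least 16 bases, against 3.61% of 19403 other genes. In the lines that follow, capitals mark the 16 bases of the hairpin, with 5 bases of transcript on either side.
HIST1H2AC: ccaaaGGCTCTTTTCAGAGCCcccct
HIST3H2A: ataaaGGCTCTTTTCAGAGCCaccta
HIST2H2BE: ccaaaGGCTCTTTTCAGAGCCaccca
HIST1H2AG: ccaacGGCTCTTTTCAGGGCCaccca
HIST1H2BC: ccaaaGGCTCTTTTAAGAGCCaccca
HIST1H3E: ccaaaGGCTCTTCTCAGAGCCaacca
HIST1H4I: aaaaaGGCCCTTTTTAGGGCCcctaa
HIST1H4H: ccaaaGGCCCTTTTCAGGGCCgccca

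The hairpin lay 22 to 67 bases after the stop codon (median 35.5), and 6 distinct 16-base forms were found. The form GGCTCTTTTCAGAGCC was shared by 17 members of the H2A, H2B and H3 types. All 8 H4 members with a hairpin had arms beginning GGCCC, and no hairpin of another type did. In 31 of the 32 members all 6 base pairs of the stem were Watson-Crick pairs, and HIST1H2AG was the exception with 5.

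How far each annotated gene reached past the hairpin differed between members, and that length entered the FPKM of each gene. For 32 members, HIST1H1C and HIST1H2BK among them, the model held only the coding length. Another 22 had a hairpin followed by at least 100 further bases, 10 had a hairpin with fewer bases after it, and 6 protein-coding members had no hairpin letters in their model. Of the 35 members with at least 50 bases of 3' UTR, 22 had the poly(A) signal letters AATAAA or ATTAAA in the last 50 bases, against 84.3% of 19181 other genes. Among the 12 members with a mean of at least 1 FPKM over the 6 libraries, 7 had a model reaching 100 or more bases beyond the hairpin, 1 reached less far, 1 had no hairpin letters and 3 were coding length only.

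Few reads fell in these genes. The libraries held 17116487 to 18027065 reads in genes each, and the 76 members together took 1606 ± 124 reads in NC and 1302 ± 73.6 in siHJURP (SD, n = 3), which is 0.00926% ± 0.00066 and 0.00734% ± 0.00046 of all reads in genes. No read was seen in any library for 11 members: HIST1H2AA, HIST1H2AD, HIST1H2AK, HIST1H2AM, HIST1H2BA, HIST1H3D, HIST1H4G, HIST2H2BB, HIST2H3A, HIST2H3DP1 and HIST3H3. A count of 0 in a library allows up to 3 reads. Of these 11, 7 shared exon bases with another gene, and 5 of the 7 also shared more than 50% of their 75-base windows; the part of that sharing in the count of 0 was not tested. HIST1H3D lay wholly within the exons of AL031777.3, and HIST2H3A shared 100% of its windows with other genes. The median member had 13 reads over all 6 libraries, and 16 members had at least 10 reads in each library.

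Taking a mean of 1 FPKM as detected, 12 members were: 1 of 6 H1, 4 of 17 H2A, 5 of 23 H2B, 1 of 15 H3 and 1 of 15 H4 genes. FPKM is the number of fragments scaled by the length of the gene and the size of the library. Levels can be compared between genes only as far as the annotated lengths match the RNA present. HIST1H1C and HIST1H2BK, both with models of coding length only, stood far above the rest in FPKM. They made up 56.9% to 63.4% of the members' summed FPKM in each library and 33.6% to 42.2% of the members' reads. Below 1 FPKM lay 64 members, of which 53 had some reads. The best covered of these were HIST2H2BC with 573 reads, HIST1H3E with 209, HIST2H2BD with 203 and HIST1H4H with 188, all on long gene models.

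**Figure D1:**
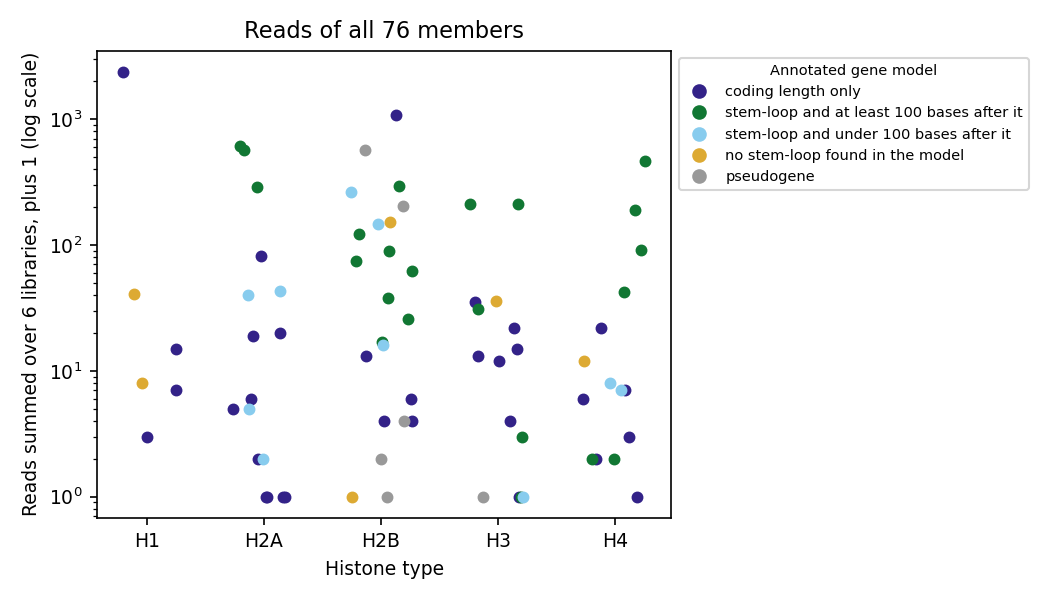
Reads of each of the 76 members summed over the 6 libraries, plus 1, on a log axis, by histone type; each point is 1 gene and its colour gives the annotated gene model. HIST1H1C, with 2373 reads, is the highest H1 point and HIST1H2BK, with 1079, the highest H2B point, while 11 genes sit at 1 because they had 0 reads.

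Small RNAs that end without a poly(A) tail were listed at or near 0 as well. Of 22 rows for such RNAs, 14 held 0 in all 6 libraries, among them RN7SK and RPPH1, which are abundant in growing cells. Only RN7SL2 and RNU5A-1 passed a mean of 1 FPKM, and RN7SL2 stood at 27.0 to 49.2 FPKM. How the RNA was selected, and its part in the low level of the histone genes, was not tested.

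Sequence shared between members limits which gene a read can be given to. In an alignment of the longest transcripts, 12 members were over 95% identical to another member over the shorter of the pair (or had the same coding sequence), and 17 shared more than 50% of their 75-base windows with another gene. The copies HIST2H2AA3 and HIST2H2AA4 had 4 reads and 1 read, and HIST2H4A and HIST2H4B had 1 read each. Among detected members, HIST1H2BK shared 50.5% of its windows, with H2BFS and 6 other H2B genes of the HIST1 cluster, and HIST2H2AC shared 23.7%, with HIST2H2AA3 and HIST2H2AA4. The values of these genes are uncertain to that extent, since the sources used here do not say how reads with several matches were counted. HIST1H1C shared none. A further limit is overlap on the genome: 18 members shared exon bases with another gene, on either strand, and none of the 12 members detected at 1 FPKM or more was among them.

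HJURP itself was lower in the siHJURP libraries. It stood at 29.2, 29.02 and 30.0 FPKM in NC replicates 1 to 3 and at 8.66, 8.64 and 8.65 FPKM in siHJURP replicates 1 to 3. On the log2 scale it fell by 1.66, with an SE of 0.03 and an adjusted p of 1.41e-06 by limma.

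The question for the histone genes was whether their level differed between siHJURP and NC. HIST1H1C, a linker histone gene and the highest of the members, fell by 0.68 on the log2 scale, and HIST2H2BE, an H2B gene, fell by 0.37. The other 10 detected members did not pass the test. All fold changes here are of log2(FPKM + 1), which understates the change of low genes, and adjusted p-values come from limma over all 13365 genes with a mean of at least 1 FPKM. Over all of those genes 37.9% were called in either direction (20.3% lower and 17.6% higher). Of the 8525 with a mean of 1 to 10 FPKM, the level of most of the 12, 32% were called. The 2 called of 12 tested are a smaller share than either background, though 12 genes are few. That order turned when protein-coding genes alone were fitted, where 8 of the 12 and 5350 of 10875 genes were called. None of the 12 was called higher by limma, or by limma's voom on the whole reads, and the 4 with an unadjusted p under 0.05 were all lower.

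In the same 12 members the median log2 fold change was -0.27 and 11 values lay below 0, where the median over all tested genes was -0.01 and 50.9% lay below 0. The 3 siHJURP libraries lay outside the range of the 3 NC libraries for 6 of the 12, each time below, against 52.2% of all tested genes in either direction (26.8% below and 25.4% above). HIST2H2BE is among these 12 although it passed the filter only through NC; without it 10 of 11 values lay below 0, the median was -0.25 and 5 of 11 did not overlap. The 12 passed a filter on their level and do not stand for all members. In bulk RNA, fewer cells in S phase and less histone RNA per cell cannot be told apart.

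**Figure D2:**
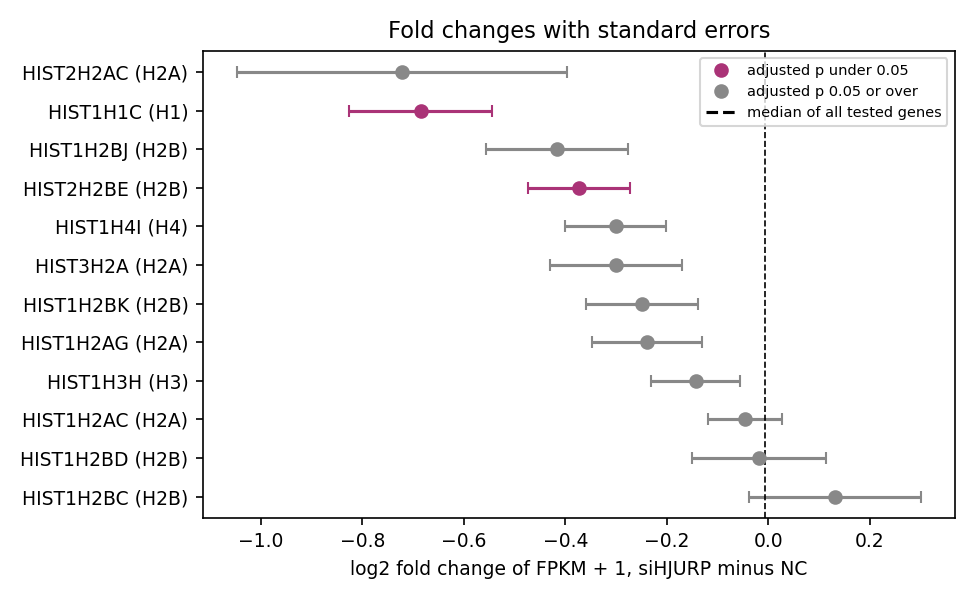
Log2 fold change of FPKM + 1, siHJURP minus NC, for the 12 tested members, with bars of 1 standard error; the dashed line is the median of all 13365 tested genes. Coloured points, HIST1H1C and HIST2H2BE, had an adjusted p under 0.05, and HIST1H2BC is the sole point above 0.

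H1 is the linker histone that binds DNA where it enters and leaves the nucleosome. HIST1H1C (ENSG00000187837, chr6:26055787-26056428 in hg38, minus strand) stood at 40.4, 46.4 and 43.2 FPKM in NC replicates 1 to 3. In siHJURP replicates 1 to 3 it stood at 22.3, 24.8 and 33.7 FPKM. All siHJURP values lay below all NC values, and siHJURP replicate 3 was the nearest to NC. The means were 43.3 ± 2.98 and 26.9 ± 6.01 FPKM (SD, n = 3), a level 37.8% lower, and the log2 difference of -0.68 had an SE of 0.14 and an adjusted p of 0.00857 by limma. These values rest on 444, 518 and 468 reads in NC and 260, 293 and 390 in siHJURP. The other 5 H1 genes held 2 (HIST1H1A), 14 (HIST1H1B), 6 (HIST1H1D), 40 (HIST1H1E) and 7 (HIST1H1T) reads over all libraries, and their summed FPKM was 0.912 ± 0.436 in NC and 0.891 ± 0.291 in siHJURP. The 6 reads of HIST1H1D all came from NC libraries.

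H2A and H2B pair into the dimers that flank the nucleosome's core tetramer. HIST3H2A (chr1:228456979-228457873, minus strand) was the highest H2A gene. It stood at 6.004, 7.45 and 6.63 FPKM in NC and 4.93, 6.55 and 4.41 FPKM in siHJURP replicates 1 to 3, with a log2 fold change of -0.30 (SE 0.13, adjusted p = 0.111). The groups overlapped through siHJURP replicate 2, which decides this value: without it the log2 fold change was -0.44 (adjusted p = 0.0151), without siHJURP replicate 3 -0.20, and with siHJURP replicate 2 alone -0.02. HIST1H2AC (chr6:26124145-26139116, plus strand) stood at 3.64, 3.51 and 3.45 FPKM in NC and at 3.404, 3.77 and 3.03 FPKM in siHJURP. Its log2 fold change was -0.05 (SE 0.07, adjusted p = 0.659), and the groups lay on top of each other.

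HIST2H2AC (chr1:149886975-149887364, plus strand) had 1.95, 3.39 and 2.59 FPKM in NC and 1.84, 0.278 and 1.85 FPKM in siHJURP. The lowest of these values rests on 2 reads, in siHJURP replicate 2, against 13 in each of the other siHJURP libraries. All siHJURP values lay below NC, though replicate 1 of each group differed little, and the log2 fold change of -0.72 (SE 0.32) had an adjusted p of 0.123. Without siHJURP replicate 2 it was -0.34 (adjusted p = 0.175), and with that library as the only one of its group -1.49 (adjusted p = 0.0252). HIST1H2AG (chr6:27133042-27135291, plus strand) had 1.32, 1.25 and 1.63 FPKM in NC and 1.00, 1.16 and 0.938 FPKM in siHJURP. Here too the groups did not overlap, with a log2 fold change of -0.24 (SE 0.11, adjusted p = 0.124). None of the 4 tested H2A genes was called in the main limma fit or by voom, and in the main fit none had an unadjusted p under 0.05. With protein-coding genes alone, limma called 3 of them lower.

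HIST1H2BK (chr6:27146418-27146798, minus strand), the highest H2B gene, stood at 27.0, 26.5 and 34.3 FPKM in NC. In siHJURP it stood at 21.99, 26.8 and 24.4 FPKM. The NC mean was raised by replicate 3, siHJURP replicate 2 lay among the NC values, and the log2 fold change of -0.25 (SE 0.11) had an adjusted p of 0.117. Without NC replicate 3 it was -0.13 (adjusted p = 0.263).

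HIST2H2BE (chr1:149884459-149886652, minus strand) had 1.76, 1.62 and 1.35 FPKM in NC and 1.01, 0.965 and 0.987 FPKM in siHJURP. The 3 siHJURP libraries were close to each other and all below NC. The log2 fold change was -0.37 (SE 0.10, adjusted p = 0.0245), and the level was 37.5% lower, from 66, 62 and 50 reads in NC to 40, 39 and 39 reads. Its siHJURP mean, 0.986 FPKM, was below the filter, so it was tested only because it was higher in NC. The call was lost with no filter on the level (adjusted p = 0.0699) and when any single library other than NC replicate 3 was left out (adjusted p = 0.059 to 0.0829).

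HIST1H2BD (chr6:26158146-26171349, plus strand) had 3.35, 2.84 and 2.45 FPKM in NC and 2.91, 2.24 and 3.38 FPKM in siHJURP. The groups overlapped fully (log2 fold change -0.02, SE 0.13, adjusted p = 0.93), and the sign turned under other scalings. HIST1H2BJ (chr6:27125897-27132750, minus strand) had 1.54, 2.48 and 1.62 FPKM in NC and 1.102, 1.03 and 1.29 FPKM in siHJURP. Its siHJURP values were all below NC, and the log2 fold change of -0.42 (SE 0.14) had an adjusted p of 0.0537. It was called in 4 of 20 other settings, and without NC replicate 2, the highest library, the log2 fold change was -0.27 (adjusted p = 0.102). HIST1H2BC (chr6:26114873-26123926, minus strand) was the only tested member with a fold change above 0. It had 1.47, 0.827 and 1.49 FPKM in NC and 1.06, 1.63 and 1.73 FPKM in siHJURP, overlapping ranges with a log2 fold change of 0.13 (SE 0.17, adjusted p = 0.582) that was below 0 without NC replicate 2.

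H3 and H4 form the tetramer at the centre of the nucleosome. HIST1H3H (chr6:27810064-27811300, plus strand), the H3 gene that was detected, had 1.56, 1.95 and 1.73 FPKM in NC and 1.51, 1.45 and 1.48 FPKM in siHJURP. The groups were adjacent without overlap, and the log2 fold change was -0.14 (SE 0.09, adjusted p = 0.24), or -0.09 without NC replicate 2. HIST1H4I (chr6:27138588-27139881, plus strand), the H4 gene that was detected, had 3.43, 3.91 and 4.17 FPKM in NC and 2.81, 2.56 and 3.43 FPKM in siHJURP. NC replicate 1 and siHJURP replicate 3 met at nearly the same value. The log2 fold change of -0.30 (SE 0.10) had an adjusted p of 0.0509, just over the threshold, and it fell under the threshold in 7 of 20 other settings, among them without NC replicate 1 (0.0474) and without siHJURP replicate 3 (0.0223).

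**Figure D3:**
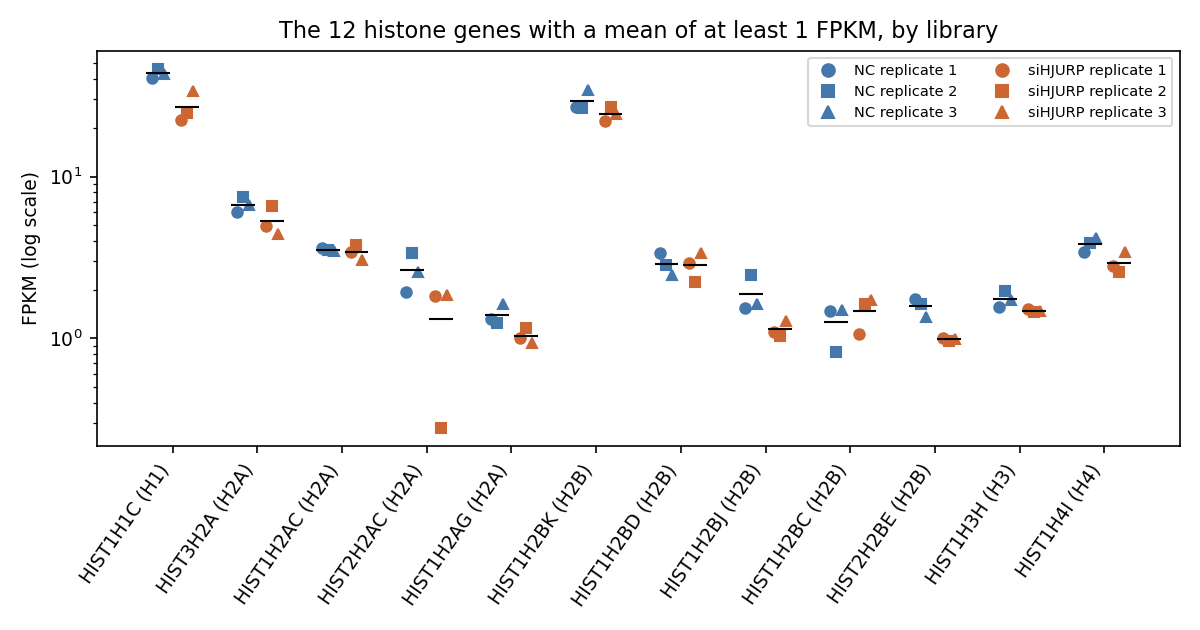
FPKM of the 12 detected members in every library, on a log axis; blue points are NC and orange points siHJURP, the marker shape gives the replicate, and the black line is the group mean. HIST1H1C and HIST1H2BK lie above 20 FPKM in every library, the others below 8, and HIST2H2AC in siHJURP replicate 2 is the lowest point at 0.278.

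Summed over all members of a type, the level was lower in siHJURP for every type; these sums carry no test. All 76 members together summed to 106, 121 and 123 FPKM in NC and to 77.9, 82.9 and 93.4 FPKM in siHJURP, a ratio of 0.725. The siHJURP libraries lay below the NC libraries without overlap. HIST1H1C and HIST1H2BK weigh heavily in this sum, and without them the ratio was 0.755.

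For H1 the sum went from 44.2 ± 3.42 to 27.8 ± 6.22 FPKM (SD, n = 3; ratio 0.629), nearly all of it HIST1H1C. The H2A sum was 18.0 ± 1.62 FPKM in NC and 12.9 ± 0.162 in siHJURP (ratio 0.718), and the H2B sum 41.6 ± 4.57 and 34.1 ± 2.15 (ratio 0.82). For H3 the sums were 5.93 ± 1.06 and 4.28 ± 0.392 FPKM (ratio 0.722), for H4 7.16 ± 0.823 and 5.67 ± 0.954 (ratio 0.791). The groups did not overlap for H1, H2A, H2B and H3. They overlapped for H4, where siHJURP replicate 3 was above NC replicate 1. Counted in reads, where long gene models weigh more, the ratio over all members was 0.811. These read sums were not scaled to the deposited library size behind the FPKM values. That size was larger in siHJURP (1.80e+07 to 1.84e+07) than in NC (1.69e+07 to 1.74e+07). Reads in genes overlapped between the groups, at 17116487 to 17625638 in NC and 17524772 to 18027065 in siHJURP. The read ratios and overlaps therefore also carry any difference in depth. Unscaled, the groups overlapped for H2B (ratio 0.875), H3 (0.902) and H4 (0.901) and stayed apart for H1 (0.668) and H2A (0.845). The H2B reads include those of pseudogenes, mainly HIST2H2BC (289 in NC, 284 in siHJURP) and HIST2H2BD (104 and 99). Without the pseudogenes the H2B groups do not overlap in reads. The H3 groups also overlapped in FPKM when members with a near-identical copy were left out.

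**Figure D4:**
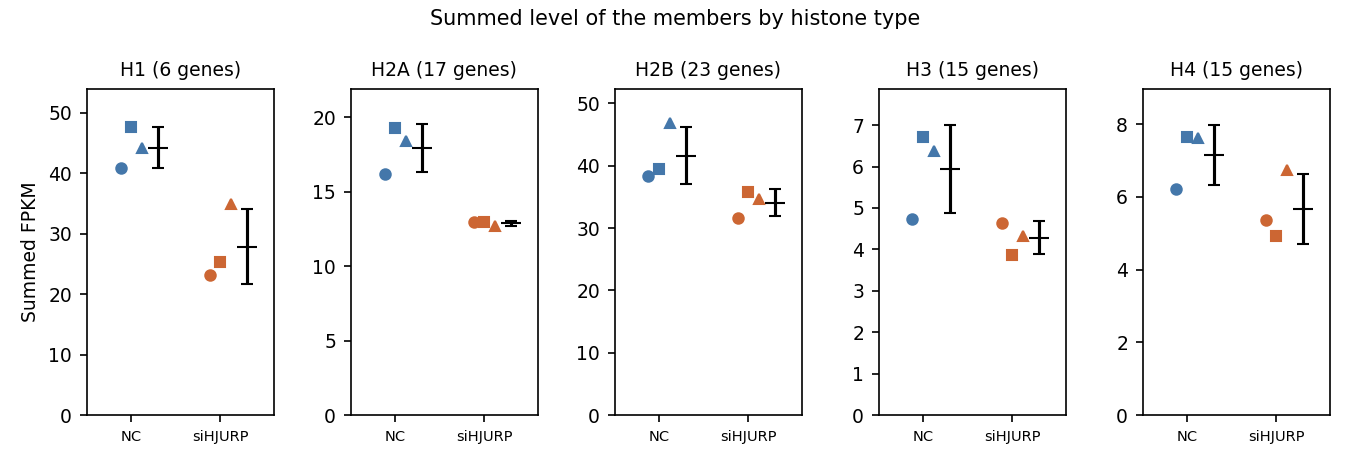
Summed FPKM of all members of each histone type in each library, 1 panel per type with an axis from 0; points are libraries and the black mark and bars are the group mean and SD of 3 libraries. The siHJURP points lie below the NC points in the H1, H2A, H2B and H3 panels and overlap them in the H4 panel.

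Of the 64 members below 1 FPKM, 39 had a lower mean FPKM in siHJURP than in NC. That is 39 of the 53 with reads, where 52.4% of all 21626 genes with reads and a mean under 1 FPKM had a lower mean. The siHJURP libraries lay below NC without overlap for 6 of them: HIST1H1D, HIST1H2AE, HIST1H2AJ, HIST1H2BH, HIST1H4E and HIST3H2BB. Over all genes of that level 6.54% lay below without overlap and 5.48% above. HIST1H2BH, for example, had 16, 22 and 24 reads in NC and 9, 12 and 6 in siHJURP. HIST1H2AE had 13, 11 and 6 reads in NC and 5, 2 and 2 in siHJURP, and HIST1H4E had 7, 14 and 12 and then 4, 2 and 2. With no filter on the level, limma called none of the 53 with reads, and 6 had an unadjusted p under 0.05. Of the 34991 genes in that fit 10.9% were called, a share that includes genes far above 1 FPKM. Members without reads were not in the fit. The lowest adjusted p was that of HIST1H4E, 0.0504. HIST1H2AE had a mean of 1.14 FPKM in NC and 0.324 in siHJURP, and its adjusted p with no filter was 0.0778. It was called with a filter of 0.5 FPKM (adjusted p = 0.0281), which it passed only through NC.

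HIST4H4, the lone H4 gene on chromosome 12, went the other way. It had 11, 10 and 8 reads in NC and 24, 16 and 21 in siHJURP, so that every siHJURP library was above every NC library. Its adjusted p with no filter was 0.133. No other member below 1 FPKM was higher in siHJURP without overlap.

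The promoters were read from RefSeq (GRCh38.p14) for the 61 members that matched by gene, and letters known from histone promoters were searched on both strands in the 250 bases before the start. The TATA letters TATAAA were in 65.6% of them against 10.7% of all 35116 RefSeq promoters. CCAAT was in every matched H1, H2A, H2B and H3 promoter and in 3 of 13 H4 promoters, against 32% of all. The octamer ATTTGCAT, the site of the factor POU2F1 in H2B promoters, was in 11 of 14 H2A and 14 of 18 H2B promoters, in 1 of 10 H3 promoters and in no H1 or H4 promoter, against 1.63% of all. The H3 promoter with the octamer, that of HIST1H3D, is the same stretch of DNA as the one given for the H2A gene HIST1H2AD. The H1 box AAACACA was in all 6 H1 promoters and in no other member's, against 4.82% of all. These are matches of letters and not mapped sites.

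**Figure D5:**
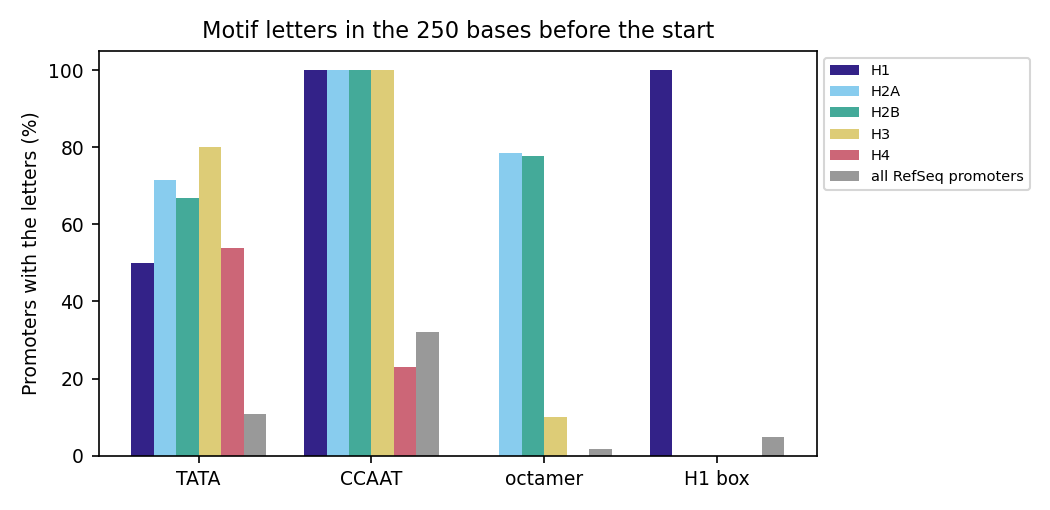
Share of promoters, in percent, that hold each motif's letters on either strand in the 250 bases before the start, for the members of each histone type and for all RefSeq promoters (grey). The H1 box is at 100% in H1 and 0% in the other types, and the octamer is at 78.6% in H2A and 77.8% in H2B.

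The promoters of both genes that were called lower are shown with these letters, or their reverse complements, in capitals, on the strand of the gene. That of HIST1H1C, at chr6:26056471-26056720 on the minus strand of GRCh38.p14, holds the H1 box and CCAAT. That of HIST2H2BE, at chr1:149886683-149886932 on the minus strand, holds CCAAT, the octamer and TATAAA.
HIST1H1C promoter: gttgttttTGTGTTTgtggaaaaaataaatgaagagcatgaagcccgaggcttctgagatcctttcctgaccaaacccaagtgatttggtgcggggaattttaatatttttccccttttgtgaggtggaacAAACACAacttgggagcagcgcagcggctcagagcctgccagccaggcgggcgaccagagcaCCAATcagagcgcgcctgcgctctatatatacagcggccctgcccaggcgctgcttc
HIST2H2BE promoter: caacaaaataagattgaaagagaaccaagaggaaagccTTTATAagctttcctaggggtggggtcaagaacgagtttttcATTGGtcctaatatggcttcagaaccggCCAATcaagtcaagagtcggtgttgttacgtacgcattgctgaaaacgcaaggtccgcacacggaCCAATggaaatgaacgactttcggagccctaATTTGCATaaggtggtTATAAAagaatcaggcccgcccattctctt

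Both promoters thus carry CCAAT, and no letters searched other than CCAAT were common to them. In the HIST1H1C promoter the nearer H1 box begins 119 bases and CCAAT 57 bases before the start. In the HIST2H2BE promoter the octamer begins 46 bases and the nearer TATAAA 30 bases before it.

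Many H2A and H2B genes sit head to head, so that a single stretch of DNA serves as the promoter of both. Among the members, 13 such H2A and H2B pairs had starts 124 to 331 bases apart. In 3 pairs both genes were detected: HIST1H2BC with HIST1H2AC, HIST1H2BJ with HIST1H2AG, and HIST2H2BE with HIST2H2AC. Partners could differ widely in level. HIST1H2BK had a mean of 26.8 FPKM and its partner HIST1H2AH 0.0982, while HIST3H2A had 5.99 and its partner HIST3H2BB 0.101. Across the HIST2 pair, HIST2H2BE was called lower and HIST2H2AC, with the larger fold change and the larger error, was not; the difference between them was not tested.

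Among 24 genes for the transcription and 3' end processing of histone mRNA, 23 were tested, and 8 were lower, 4 higher and 11 not called, against 37.9% called over all genes. ERI1, the exonuclease that trims the histone mRNA end, fell by 0.49 on the log2 scale (adjusted p = 0.0008, from 12.6 ± 0.324 to 8.68 ± 0.659 FPKM). UPF1, the helicase recruited for histone mRNA decay, fell by 0.27, and the cap-binding subunit gene NCBP2 fell by 0.24. Higher were CTR9 of the PAF complex (0.27), the cleavage factor gene CPSF2 (0.26) and MIF4GD, which encodes a partner of SLBP (0.29).

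SLBP, the stem-loop binding protein, stood at 56.8, 62.7 and 60.5 FPKM in NC and 52.0, 54.8 and 49.4 FPKM in siHJURP, all below NC. It fell by 0.20 on the log2 scale (SE 0.05, adjusted p = 0.0231). NPAT, the coactivator of histone transcription in S phase, had 5.90, 5.82 and 6.91 and then 5.21, 5.44 and 5.07 FPKM, with a log2 fold change of -0.21 (adjusted p = 0.051). RNU7-1, the U7 small nuclear RNA, had 0 reads in every library, as did most of the small RNAs without a poly(A) tail. Whether the 0 of RNU7-1 reflects its level in the cells was not tested. With siHJURP replicates 1 and 3 both left out, 1 gene of this list was called lower and 1 higher.

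Among 19 tested chaperones and carriers of newly made histones, 5 were lower, 2 higher and 12 not called, a share near the 37.9% called over all genes. DNAJC9, a heat shock cochaperone that binds H3 and H4, fell by 0.50 on the log2 scale, and ASF1B, which hands H3 and H4 to the assembly factors, fell by 0.37. SPTY2D1, an H3 and H4 chaperone, fell by 0.32, and CHAF1A, a subunit of the chromatin assembly factor CAF-1, fell by 0.15. RBBP4, a histone-binding subunit of several complexes, rose by 0.34 and DAXX, which serves H3.3, by 0.18. NASP, the store of soluble H3 and H4, had 19.6, 21.5 and 21.99 FPKM in NC and 21.1, 21.9 and 19.9 in siHJURP, overlapping ranges with a log2 fold change of -0.01 (adjusted p = 0.948).

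In a list of 20 genes that peak or act in S phase, 13 were lower and 7 not called, where 20.3% of all tested genes were lower and 17.6% higher. None was higher in the main limma fit or by voom, and 1 was called higher in 3 of 21 other settings. On the log2 scale the licensing gene CDT1 fell by 0.45, as did the helicase gene MCM4, while the ribonucleotide reductase gene RRM2 fell by 0.43 and MCM7 by 0.28. PCNA, the clamp of the replicative polymerases, went from 119, 129 and 117 FPKM in NC to 91.7, 97.4 and 87.1 FPKM in siHJURP, and it fell by 0.40 (adjusted p = 0.0017). E2F1 fell by 0.32, and CCNE2, the cyclin E2 gene, fell by 0.22 (adjusted p = 0.0475). With siHJURP replicates 1 and 3 both left out, 3 of the 20 were called lower. The part of these genes' shift in the lower sums of the histone members was not tested.

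Most replacement histones are made throughout the cell cycle from ordinary polyadenylated mRNA. Whether that holds for each gene listed here, H2AFX and CENPA among them, was not tested. Of 11 tested genes 6 were lower, 1 higher and 4 not called, against 20.3% lower and 17.6% higher over all genes. H2AFX, the variant phosphorylated at DNA breaks, stood at 158, 169 and 163 FPKM in NC and at 23.6, 27.8 and 24.7 FPKM in siHJURP, and it fell by 2.64 on the log2 scale. That is a larger change than the one of HJURP itself. H3F3B, an H3.3 gene, fell by 0.37, H2AFV by 0.31, H2AFZ by 0.27 and H2AFY by 0.16, while H2AFY2, a macroH2A gene, rose by 0.35. The replacement genes together summed to 574 ± 29.6 FPKM in NC and 378 ± 11.5 in siHJURP, 4.93 ± 0.344 and 4.49 ± 0.472 times the sum of the replication-dependent members. H2AFX, with means of 164 FPKM in NC and 25.4 in siHJURP, made up most of the fall in that sum. By library the multiple was 4.55 to 5.21 in NC and 3.945 to 4.81 in siHJURP, so the groups overlapped. The lower mean multiple in siHJURP rests on H2AFX alone. With H2AFX left out of the replacement sum, the mean multiple is higher in siHJURP than in NC.

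The siHJURP libraries were not alike in every respect. The interferon-induced gene IFI6 stood at 160.3 and 234 FPKM in siHJURP replicates 1 and 3, and at 12.7 in siHJURP replicate 2 and 13.9 to 16.9 in NC. HIST1H1C did not follow that split, with siHJURP replicate 2 between the other siHJURP libraries. Other tested members were mixed. HIST3H2A and HIST1H2BK had siHJURP replicate 2 within the NC range and siHJURP replicates 1 and 3 below it. HIST2H2AC was lowest in siHJURP replicate 2. Against NC, siHJURP replicate 2 alone gave a log2 fold change of -0.78 for HIST1H1C (adjusted p = 0.0119), with its spread taken to be that of the NC libraries, and -0.39 for HIST2H2BE (adjusted p = 0.174). Of 7 markers of SKOV3 and ovarian epithelium, 6 had at least 1 FPKM, led by ERBB2, and their summed level was 632 to 651 FPKM in NC and 592 to 631 in siHJURP. Markers of blood cells (4 genes), endothelium (3) and liver (1) each summed to under 0.3 FPKM in every library, with CD3E at 0. Of 4 fibroblast and muscle markers, COL1A1 alone reached 1 FPKM, and the list summed to 12.1 to 15.9 in NC and 9.98 to 14.4 in siHJURP.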

How the data were processed

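The authors deposited 1 table of FPKM per library, 6 in all; the genome build hg38 and the tools featureCounts 1.5.0-p3 and HISAT2 2.0.5 are named per the submitters' processing notes. Strand and multiple-match settings: not given in the sources used here. Every FPKM value in the deposited tables could be turned back into whole reads (100% of values within 0.01), and these reads gave the depths. The deposited library sizes were 0.985 to 0.989 times the reads in genes for NC and 1.02 to 1.03 times for siHJURP, which lowers siHJURP values by the difference.

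Genes with a mean of at least 1 FPKM were tested on log2(FPKM + 1) with limma 3.58.1 (R 4.3.3, trended moderation, the 6 libraries as 2 groups of 3) and Benjamini-Hochberg adjustment over all of them, threshold 0.05; the fit was checked on simulated data. Sums by type have no test. Coordinates and stem-loops come from GENCODE release 29 on the build of the files, promoters from RefSeq. Python 3.11.15, pandas 2.3.3, numpy 2.4.6, Biopython 1.88 and matplotlib 3.10.9 were used.

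The genes named were HJURP, every member with a mean of at least 1 FPKM, and of each list the 6 called genes of lowest adjusted p with SLBP, NPAT, RNU7-1, NASP, PCNA, CCNE2 and H2AFX; the RNAs without a tail that are named are examples, and they and IFI6 were chosen after their values were seen. The members and lists were chosen with earlier results of these data known. Of the 26 names for histone mRNA processing 24 were found; of 12 replacement histones all were found and H3F3C was below the filter. The RNAs without a poly(A) tail (21 names, 22 rows) gave 2 tested and 0 called genes by limma.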

Additional observations from a re-analysis of the deposited data

How the results depend on the processing

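HIST1H1C was lower and called under all 21 alternatives (log2 -0.85 to -0.57, adjusted p 0.000176 to 0.0397), as was HJURP. The number of members called lower was 2 and became 4 with a pseudocount of 0.1 or with robust moderation (5064 and 5076 of 13365 genes called). It was 8 with protein-coding genes alone (smaller standard errors), where 5350 of 10875 genes were called. A filter of 0.5 FPKM gave 3 (5022 of 16048 genes called). A filter of 5 FPKM (3855 of 7635 genes called) or none (3807 of 34991) gave 1. Leaving out 1 library gave 1 to 2, and no alternative called a member higher. Over the 12 tested members, 210 of 243 alternative values kept direction and side of the threshold, 8 lost a call (all HIST2H2BE), 18 gained one and 7 reversed, none of them called: HIST1H2AC leaving out siHJURP replicate 3 (0.0161; range over single libraries left out -0.106 to 0.0161) or siHJURP replicates 1 and 3 together (0.0744), HIST1H2BC leaving out NC replicate 2 (-0.017; range -0.017 to 0.257), and HIST1H2BD with TPM (0.0316) or total reads (0.0226) or leaving out NC replicate 1 (0.0684) or siHJURP replicate 2 (0.0995; range -0.117 to 0.0995). The cause was not tested.

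With siHJURP replicates 1 and 3 both left out, calls over all genes went from 5068 to 1844 (716 higher, 1128 lower), with fewer libraries. Leaving out 1 library gave 3719 to 4724. Under that setting calls lower were 1 for histone mRNA processing, 2 for chaperones, 3 for S phase genes and 2 for replacement histones. For histone mRNA processing, 8 called lower became 4 with no filter, 5 with total reads and 4 to 7 leaving out 1 library. For chaperones, 5 became 3 with no filter, TPM, quantile scaling, total reads, no trend or the replicate block, and 3 to 4 leaving out 1 library. S phase genes gave 10 to 13 and replacement histones 4 to 6.

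The log2 ratio of the H1 sum was -0.67 and -0.034 without HIST1H1C and HIST1H2BK, an alternative chosen after seeing the data. In reads, which were not scaled to library size, the H2A sum changed from -0.48 to -0.24 and the H3 sum from -0.47 to -0.15. Members detected were 12, and 21 at 0.5 FPKM, 3 at 5 FPKM and 30 by a read in every library. Libraries of the same replicate number showed no shared shift (correlations of deviations 0.0025, -0.0116 and 0.0163), which does not settle whether they were paired. With the replicate block in limma, HIST2H2BE had an adjusted p of 0.056, and HIST1H4I and HIST3H2A were called (0.0391 and 0.04). Together with HIST1H1C that made 3 members called lower. TPM moved the median of all genes by 0.05 on the log2 scale. Depth limits members with few reads, the median being 13 over 6 libraries; HIST2H2BC and others below 1 FPKM had more reads than some tested members.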
